A study of Mus musculus with 2 samples.

Results

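The genes described here encode the subunits of the 5 protein complexes of oxidative phosphorylation. They were chosen by name in the deposited gene list: symbols that begin with Ndufa, Ndufb, Ndufc, Ndufs or Ndufv (complex I), Sdha to Sdhd (complex II), symbols beginning with Uqcr (complex III), Cox4 to Cox8 followed by a letter (complex IV) or Atp5 (complex V), and the mitochondrial genome's mt-Nd, mt-Co, mt-Atp and mt-Cytb genes. Of 109 matching symbols, 4 had fewer than 100 unique molecular identifiers (UMIs, the tags that count single captured RNA molecules) over both libraries and were left out. The 105 members stand against 31253 features in the files, of which 13261 had at least 100 UMIs. They comprise 84 nuclear subunit genes, 8 nuclear complex I assembly factors (Ndufaf1 to Ndufaf8, which help build the complex and are not part of it) and 13 subunit genes of the mitochondrial genome. By complex, nuclear and mitochondrial-encoded subunits number 37 and 7 in complex I, 4 and 0 in complex II, 8 and 1 in complex III, 18 and 3 in complex IV, and 17 and 2 in complex V. Ndufa4 and its relative Ndufa4l2 were counted with complex IV, where the Ndufa4 protein is now placed. Ndufb1-ps, annotated as a non-coding RNA at a bidirectional promoter, was counted with complex I because the rule takes it by name.

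Mitochondria make most of a cell's ATP by passing electrons from NADH and succinate through complexes I to IV to oxygen, while protons are pumped across the inner membrane and flow back through complex V, the ATP synthase. Complexes I, III, IV and V are assembled from subunits of both genomes, so that transcripts made in the nucleus and in the mitochondrion must both be supplied. Complex II is encoded by the nucleus alone. Several complex IV subunits and the c subunit of ATP synthase exist in alternative versions encoded by separate genes, some of them known from heart and skeletal muscle. In the brain the choroid plexus, which secretes cerebrospinal fluid, is known for its many mitochondria, and neutrophils are known to rely mainly on glycolysis.

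The study profiled single cells of infarcted mouse brain with the BD Rhapsody system 3 days after transient middle cerebral artery occlusion (tMCAO), which blocks a main artery of the brain for a time and then lets blood return. Hilpda encodes a small lipid droplet protein that inhibits triglyceride breakdown and is known to be induced by low oxygen. There was 1 library labelled flox, which the series' design text groups as WT, and 1 labelled Hilpda cKO, a conditional knockout. The Cre driver, the deleted exons, the age and sex of the mice and the number of animals behind each library are not stated in the labels. With 1 library a group there is no replicate check and no test of the genotypes. Intervals given below are exact 95% intervals that cover counting error only, and library preparation and genotype cannot be told apart.

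After filtering, 8082 cells of the flox library (median 6986 UMIs) and 7051 of the cKO library (median 8732 UMIs) were used. Hilpda itself stood at 273 CPM (UMIs of a gene scaled to the same total in each class and library) in the flox library and at 213 CPM in the cKO library over all cells, at 463 and 261 CPM in monocyte- or macrophage-like cells, and at 102 and 207 CPM in microglia-like cells. The targeted gene thus went against the label in microglia-like cells, where it was higher in the library labelled cKO. Because the deleted part is not known here, a tag from the transcript's end may lie outside it, and the value checks nothing. The libraries are therefore called the library labelled flox and the library labelled cKO, and every direction below is between those 2 libraries. They share 56 cell barcodes, 54 of them among the kept cells of the flox library and 52 among those of the cKO library. Classes were set cell by cell from marker genes that include no member, and 15 classes had at least 25 cells in each library. Those with 100 or more cells on both sides, 7 in number, were compared between libraries: microglia, monocyte or macrophage, border-associated macrophage, dendritic cell, neutrophil, endothelial cell and oligodendrocyte. Names below stand for cells that resemble those types by their markers. The gate left 26.3% of flox cells and 24.7% of cKO cells without a class.

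Summed over the 84 nuclear subunit genes, choroid plexus epithelial cells (70 and 163 cells in the libraries labelled flox and cKO) had the highest level of the 15 classes in both libraries and neutrophils (200 and 291 cells) the lowest. The nuclear subunits took 37295 CPM (interval 36757 to 37839) and 41487 CPM (41147 to 41830) of choroid plexus transcripts in the libraries labelled flox and cKO. In neutrophils they took 9184.6 CPM (8840.0 to 9539.2) and 9731.9 CPM (9450.4 to 10020). The choroid plexus level was thus 4.06 and 4.26 times that of neutrophils and 3.10 and 3.05 times that of microglia. Oligodendrocyte precursors were next at 21600 and 22985 CPM, followed by astrocytes at 20186 and 20437 CPM and fibroblasts at 18845 and 20012 CPM. Mature oligodendrocytes (16853 and 16914 CPM) and pericytes or smooth muscle cells (16631 and 17978 CPM) did not keep their order between the libraries. The leukocyte classes other than neutrophils and the neuroblasts or neurons lay close together, between 11943 CPM and 14291 CPM in both libraries, and their order differed between the libraries.

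The mitochondrial-encoded transcripts ordered the classes differently. Choroid plexus cells were again highest, at 180010 CPM and 170040 CPM, which is 18% and 17% of all their UMIs. Ependymal cells, the ciliated lining of the ventricles, came next at 121780 and 102420 CPM although their nuclear subunit level was only seventh of the 15 in the library labelled flox. Oligodendrocyte precursors, second for nuclear subunits, stood at 78407 and 73669 CPM, level with microglia at 78524 and 76840 CPM. Monocytes or macrophages (50633 and 51287 CPM) and dendritic cells (50307 and 52305 CPM) were at the low end in both libraries, and neutrophils were lowest at 29152 and 22536 CPM. The filter on cells removes those with more than 25% mitochondrial UMIs, which are mostly UMIs of these members, and 266 and 231 cells fell to it. With no such limit the choroid plexus level of nuclear subunits over microglia was 2.68 (mean over both libraries) in place of 3.07, and with a limit of 10% it was 2.63. Among kept choroid plexus cells the upper quartile of the mitochondrial-encoded percent was 22.44% in flox and 20.03% in cKO, below the limit of 25%. Cells above that limit are missing from the mitochondrial-encoded levels and from their ratio to nuclear UMIs. For choroid plexus cells neither value is given without the limit.

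**Figure D1:**
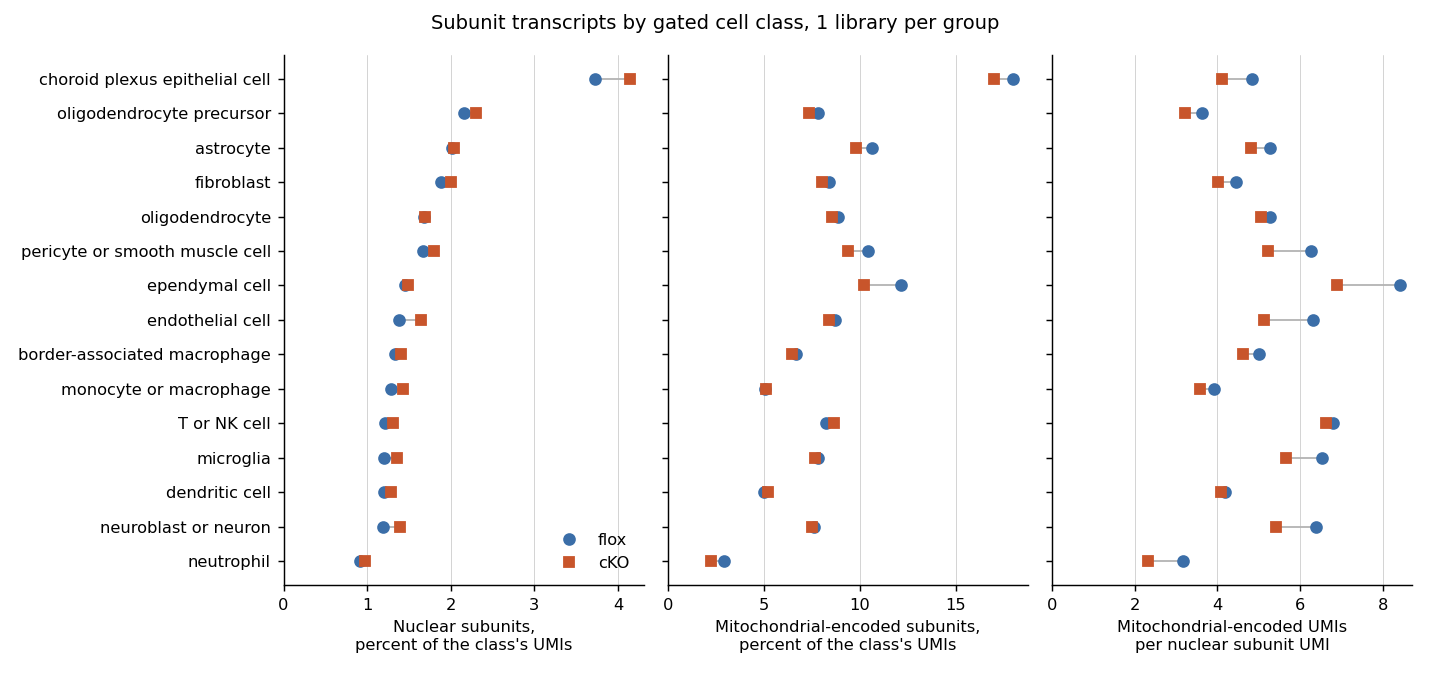
Each row is a cell class, ordered by the nuclear subunit level in the library labelled flox. The panels show the percent of the class's UMIs from nuclear subunits, the percent from mitochondrial-encoded subunits and the UMIs of the second per UMI of the first, with circles for flox and squares for cKO. Choroid plexus cells stand apart in the first panels at 3.73% and 4.15% nuclear and 18% and 17% mitochondrial-encoded UMIs, and neutrophils are lowest in all panels.

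Microglia and blood-derived macrophages, the 2 largest classes, differed in mitochondrial-encoded but little in nuclear transcripts. Nuclear subunits stood at 12050 CPM (12004 to 12096) in microglia and 12897 CPM (12838 to 12957) in monocytes or macrophages of the library labelled flox, and at 13603 and 14291 CPM in the library labelled cKO. The mitochondrial-encoded sum was 1.55 times higher in microglia in the library labelled flox and 1.498 times higher in the library labelled cKO. In consequence microglia held 6.52 (6.49 to 6.54) and 5.65 (5.62 to 5.67) mitochondrial-encoded UMIs per nuclear subunit UMI, and monocytes or macrophages 3.93 (3.91 to 3.95) and 3.59 (3.57 to 3.60). Border-associated macrophages, the resident macrophages of the brain's surfaces and vessels, lay between them at 5.001 and 4.62. The same order of the 3 macrophage classes held for complex I (8.85, 6.25 and 4.59 in the library labelled flox), complex III (10.3, 7.52 and 6.15), complex IV (8.38, 7.03 and 5.70) and complex V (2.57, 2.09 and 1.66). Ependymal cells had the highest ratio of the 15 classes at 8.41 and 6.90, and neutrophils the lowest at 3.17 and 2.32. The ratio was lower in the library labelled cKO in 15 of 15 classes, by 0.04 to 0.45 on the log2 scale.

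Within the microglia gate the nuclear subunit level differed between clusters more than the mitochondrial-encoded level did. Clusters were made without the members, and those with at least 50 gated cells in each library are described. The cluster led by Siglech, Slc2a5 and P2ry12, genes of resting microglia, had 8823.1 CPM of nuclear subunits in the library labelled flox (819 cells) and 8758.7 CPM in the library labelled cKO (328 cells). The cluster led by Cd5l, Mmp12 and Lpl had 12668 CPM (737 cells) and 14170 CPM (551 cells), and the cycling cluster led by Top2a and Ccna2 had 13183 CPM (430 cells) and 14327 CPM (342 cells). The mitochondrial-encoded sum of these 3 clusters stayed between 75364 and 83883 CPM. Mitochondrial-encoded UMIs per nuclear UMI were 9.20 and 9.58 in the resting-type cluster and 6.18 and 5.32 in the Cd5l cluster. Depth moved with this difference: the median cell had 4556 and 6231 UMIs in the resting-type cluster and 12353 and 16439 in the Cd5l cluster. Among cells of 5000 to 10000 UMIs alone, the nuclear level was 9397.5 and 8508.9 CPM in the resting-type cluster (296 and 175 cells) and 11780 and 12471 CPM in the Cd5l cluster (209 and 69 cells). Depth within this window was not matched further, and its part in the difference was not tested. A smaller cluster of gated microglia led by haemoglobin genes, with a median of 1629 and 1381.5 UMIs, stood at 15927 and 16711 CPM of nuclear subunits and was given no name.

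Clusters of the monocyte or macrophage gate varied less in nuclear subunits. The lowest was the Plac8, Ifitm6 and Vcan cluster, monocyte-type by these genes, at 11757 and 12767 CPM, and the highest the Gpnmb, Mgst1 and Fabp5 cluster at 14551 and 16036 CPM. The latter values rest on its gated cells, 126 of 596 in the library labelled flox and 174 of 595 in the library labelled cKO. Clusters named for monocytes or macrophages held 3614 and 3068 cells, against 1783 and 1782 in the gate. For mitochondrial-encoded transcripts the interferon-response cluster led by Slfn4 and Rsad2 was lowest in both libraries, at 41767 and 38474 CPM. The other clusters of this gate held between 50183 and 55704 CPM. All macrophage clusters lay below all microglia clusters in mitochondrial-encoded level, in both libraries.

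**Figure D2:**
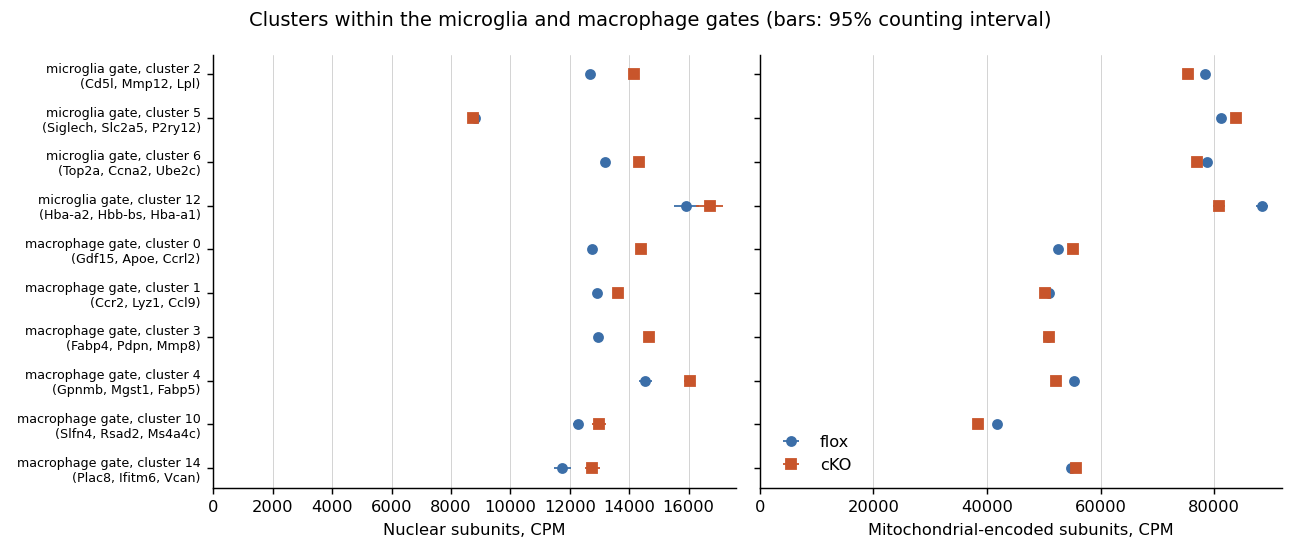
Nuclear (left) and mitochondrial-encoded (right) subunit levels in CPM for each cluster with at least 50 cells in each library, with circles for flox, squares for cKO and bars for the 95% counting interval. The resting-type microglia cluster is lowest in the left panel at 8823.1 and 8758.7 CPM but among the highest in the right panel at 81213 and 83883 CPM.

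Single members were next set against the median of the other compared classes, and a member was counted where it was at least 2-fold higher, or lower, in both libraries, with at least 30 UMIs and 100 CPM on the higher side. In choroid plexus epithelial cells 59 of the 68 nuclear subunits measured at this minimum were counted as higher, against a background of 24.9% of all genes. All 12 mitochondrial-encoded members measured were counted as higher too. No nuclear member was counted as lower, against a background of 29.1% of all genes. The median nuclear member stood 1.53 above the other classes on the log2 scale in each library. Every complex took part: summed nuclear levels in choroid plexus cells were 9895.8 and 11451 CPM for complex I against 3391.6 and 3965.5 CPM in microglia, and 11993 and 14085 CPM for complex V against 3890.2 and 4517.2 CPM. The members farthest above were Cox6b2 (5.95 and 5.001 on the log2 scale), Atp5g1 (3.12 and 2.90) and Uqcr10 (2.37 and 2.43), and those nearest to the other classes were Cox7a2l (-0.11 and -0.24), Atp5g2 (0.12 and 0.09) and Ndufb8 (0.76 and 0.62). The 8 choroid plexus markers took 130100 and 121400 CPM in these cells, and microglia markers 1794 and 1325 CPM. The classes' levels are shares of all UMIs, so that more of these transcripts and fewer of others cannot be told apart.

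In neutrophils the members counted as lower were mostly mitochondrial-encoded. Of 48 nuclear members measured, 4 were counted as lower (Ndufc1, Atp5k, Ndufa4 and Atp5g2), a share close to the background of 7.47%, and so were 9 of 11 mitochondrial-encoded members. The exceptions among the latter were mt-Nd2 (-0.98 and -1.28 on the log2 scale) and mt-Nd4l (-0.70 and -1.34), which missed 2-fold in the library labelled flox. Ndufa4, a complex IV subunit, stood at 113 and 103 CPM in neutrophils, 1.04 and 1.36 below the other classes on the log2 scale. Atp5g2, a gene for the c subunit of ATP synthase, stood at 257 and 271 CPM, 1.15 and 1.28 below. Cox8a was the member farthest above, at 532 and 641 CPM, by 0.30 and 0.50. In all, 67 nuclear subunits lay below the other classes in both libraries and 4 above, by any amount. No such count over all genes is given. The neutrophil values rest on few UMIs: the median cell had 1070 and 1309. In the library labelled flox, 16 of the 200 cells had at least 2000 UMIs and gave 32% of the class's UMIs, and they held 52140 CPM of mitochondrial-encoded transcripts and 5909 CPM of macrophage markers, against 18340 and 1593 CPM in the other 184 cells. In the library labelled cKO the 33 such cells held 36350 CPM of mitochondrial-encoded transcripts and 2709 CPM of macrophage markers, against 16850 and 2047 CPM in the other 258. Among cells with at least 2000 UMIs alone, the neutrophil mitochondrial-encoded level over that of macrophages was 1.03 in the library labelled flox and 0.709 in the library labelled cKO, in place of 0.576 and 0.439 over all their cells. The part of other cells' RNA in this result was not tested.

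Other classes differed in few members. Oligodendrocyte precursors had 10 of 61 nuclear members counted as higher (background 35.7%), among them Ndufab1 (300 and 443 CPM), which encodes the mitochondrial acyl carrier protein, and Ndufs1, the largest subunit of complex I (114 and 102 CPM). Dendritic cells had Ndufa6 (181 and 200 CPM) and Cox7a2l (392 and 366 CPM) counted as higher among 50 measured (background 18.1%) and Ndufa4 (108 and 112 CPM) as lower (background 8.9%). Cox7a2l encodes a protein that joins complexes III and IV into a supercomplex. Endothelial cells had 1 of 52, Ndufa8, at 224 and 287 CPM (background 25.9%), and Ndufa4 (362 and 463 CPM) and Cox7a2l (288 and 327 CPM) were among the next. Oligodendrocytes had Atp5g1 (349 and 440 CPM) and Ndufb9 (110 and 119 CPM) among 58 nuclear members, together with mt-Atp8 (142 and 121 CPM), against a background of 28%. Fibroblasts had Atp5g3, Ndufb6 and Ndufab1 counted as higher (background 23.4%), astrocytes Ndufa10, Ndufc2 and mt-Cytb (22.9%), and ependymal cells Ndufb5 with mt-Nd4l, mt-Nd5 and mt-Cytb (26.4%). In microglia, monocytes or macrophages and border-associated macrophages no member was counted in either direction. The members farthest above the other classes there were Ndufv3 in microglia (149 and 164 CPM, 0.40 and 0.46 on the log2 scale), Atp5g1 in monocytes or macrophages (220 and 302 CPM, 0.50 and 0.51) and Cox5a in border-associated macrophages (344 and 406 CPM, 0.64 and 0.56). The farthest below were Atp5md in microglia (115 and 130 CPM, -0.44 and -0.38), Cox7a2l in monocytes or macrophages (130 and 121 CPM, -0.53 and -0.64) and Uqcrc2 in border-associated macrophages (91.9 and 89.8 CPM, -0.27 in each). After these came, above the other classes, Ndufa12 and Atp5g1 in microglia, Ndufa1 and Ndufb8 in monocytes or macrophages, Sdhd and Ndufv3 in border-associated macrophages, Uqcrh in dendritic cells and Cox6a1 and Atp5l in neutrophils. Below them came Atp5l and Ndufb3 in microglia, Ndufa4 and Atp5g2 in monocytes or macrophages, Atp5md and Cox7a2 in border-associated macrophages, Ndufa12 and Ndufc1 in dendritic cells, Ndufb8, Cox8a and Ndufa12 in endothelial cells, and Cox7a2l, Cox5a and Ndufv3 in oligodendrocytes. For all these classes the share of members counted was below the share of all genes counted.

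**Figure D3:**
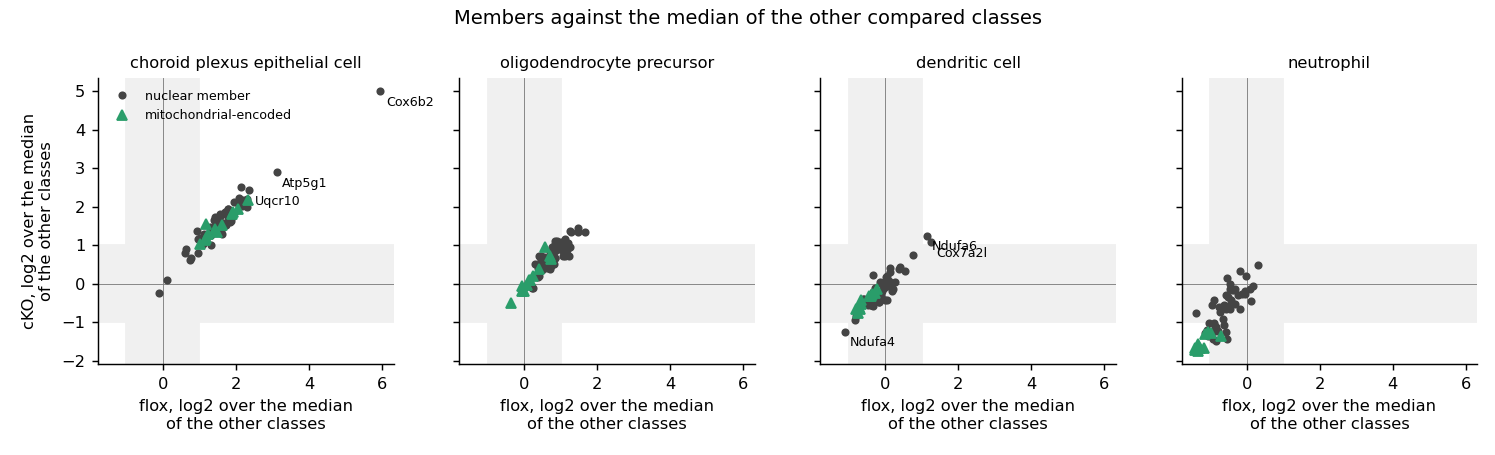
Each point is a member measured in the class, at its log2 level over the median of the other compared classes in the library labelled flox (horizontal) and cKO (vertical), with dots for nuclear members, triangles for mitochondrial-encoded members and grey bands for less than 2-fold. In choroid plexus cells 59 of 68 nuclear members and all 12 triangles lie above 2-fold in both libraries, and in neutrophils 9 of 11 triangles lie below.

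Alternative subunit genes differed in their share between classes. The promoters of those that have one in the RefSeq table used here (build GRCm38.p6) are shown beside those of their widely expressed partners, because the partners make the same subunit but differ in where they are transcribed. Each is the 250 bases before the start of transcription, written 5′ to 3′ on the gene's strand in lower case. Capitals mark every match, on either strand, to the palindromic site of nuclear respiratory factor 1 (NRF1), strict or with any base at its variable middle position, to CCGGAAG (the core bound by ETS factors), ACGTG or GCGTG (the core of the hypoxia response element), the YY1 site and CCAAT. The last capitals of Cox8a are the start of a match to the ETS core that runs past the bases shown. The windows lie at chr7:4753095-4753344 (- strand) for Cox6b2, chr7:30626115-30626364 (- strand) for Cox6b1, chr7:30183921-30184170 (+ strand) for Cox7a1, chr9:79759854-79760103 (- strand) for Cox7a2, chr7:140900447-140900696 (- strand) for Cox8b, chr19:7217617-7217866 (- strand) for Cox8a, chr11:96075632-96075881 (- strand) for Atp5g1 and chr15:102671048-102671297 (- strand) for Atp5g2.
Cox6b2: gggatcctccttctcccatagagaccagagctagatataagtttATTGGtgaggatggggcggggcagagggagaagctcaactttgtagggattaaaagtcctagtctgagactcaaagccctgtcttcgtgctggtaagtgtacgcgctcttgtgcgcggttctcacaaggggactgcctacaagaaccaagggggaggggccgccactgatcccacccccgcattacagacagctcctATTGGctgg
Cox6b1: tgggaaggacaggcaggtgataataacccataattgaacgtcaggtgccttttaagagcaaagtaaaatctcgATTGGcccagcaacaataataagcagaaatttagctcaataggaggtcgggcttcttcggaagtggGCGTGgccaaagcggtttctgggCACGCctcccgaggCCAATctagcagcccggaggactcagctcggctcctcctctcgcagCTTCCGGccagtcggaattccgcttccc
Cox7a1: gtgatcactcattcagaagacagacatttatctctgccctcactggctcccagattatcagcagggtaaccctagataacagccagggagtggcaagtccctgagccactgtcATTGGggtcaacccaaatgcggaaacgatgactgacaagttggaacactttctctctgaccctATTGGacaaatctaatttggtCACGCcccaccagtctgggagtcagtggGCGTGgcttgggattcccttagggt
Cox7a2: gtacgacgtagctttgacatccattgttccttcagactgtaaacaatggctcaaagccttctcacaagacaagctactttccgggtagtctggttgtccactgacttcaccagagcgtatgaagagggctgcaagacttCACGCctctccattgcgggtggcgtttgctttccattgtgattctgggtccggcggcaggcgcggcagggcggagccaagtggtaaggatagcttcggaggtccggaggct
Cox8b: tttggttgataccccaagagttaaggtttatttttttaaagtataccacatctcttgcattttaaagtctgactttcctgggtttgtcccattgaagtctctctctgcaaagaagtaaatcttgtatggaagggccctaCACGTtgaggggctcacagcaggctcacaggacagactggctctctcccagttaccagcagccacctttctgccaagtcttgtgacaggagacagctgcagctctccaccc
Cox8a: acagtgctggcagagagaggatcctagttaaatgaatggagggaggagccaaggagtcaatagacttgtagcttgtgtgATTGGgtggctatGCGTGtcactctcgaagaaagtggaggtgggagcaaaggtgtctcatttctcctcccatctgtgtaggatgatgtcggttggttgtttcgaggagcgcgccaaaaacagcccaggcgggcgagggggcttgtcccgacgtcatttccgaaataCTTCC
Atp5g1: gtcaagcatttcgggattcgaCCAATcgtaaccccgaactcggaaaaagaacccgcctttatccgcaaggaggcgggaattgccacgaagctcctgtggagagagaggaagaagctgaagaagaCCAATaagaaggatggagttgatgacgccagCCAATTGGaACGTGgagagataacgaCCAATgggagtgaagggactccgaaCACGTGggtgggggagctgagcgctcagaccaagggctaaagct
Atp5g2: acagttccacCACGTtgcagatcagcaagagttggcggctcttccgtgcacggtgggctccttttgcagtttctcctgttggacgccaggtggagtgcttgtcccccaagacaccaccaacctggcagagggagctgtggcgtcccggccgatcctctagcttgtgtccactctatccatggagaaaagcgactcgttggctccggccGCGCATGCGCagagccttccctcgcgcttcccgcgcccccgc

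The promoters of Cox8b, Cox7a1 and Cox6b2 held fewer CG dinucleotides than those of their partners. Within the full window of 300 bases (250 before to 50 after the start), Cox8b had 2, Cox7a1 7 and Cox6b2 10. Cox8a had 19, Cox7a2 20 and Cox6b1 17. In the remaining pair shown the counts were closer, with 16 in Atp5g1 and 20 in Atp5g2. The median of all 32851 promoters was 7 and that of the 80 member promoters 20. Atp5g2 alone of the genes shown held the strict NRF1 site. In all, 75 of the 92 nuclear members had a promoter in the table, with 80 promoters between them. The strict NRF1 site occurred in 8.75% of these and in 0.971% of all promoters, and the looser one, which includes it, in 25% and 4.60%. CCGGAAG occurred in 23.8% and 8.86%, the YY1 site in 6.25% and 0.633%, GCGTG in 55% and 32.4%, ACGTG in 23.8% and 19.6%, and CCAAT in 42.5% and 37.4%. Member promoters were also richer in GC (median 58.5% against 52.7%), and no correction was made for that. A match of letters is a description and not a binding site. Among the members without a promoter were Atp5a1, Uqcrc2, Sdhc, Ndufs1, Cox4i1, Uqcrb, Cox6a2, Cox6c, Ndufa2, Ndufa4l2, Atp5mpl, Uqcrq, Cox4i2, Ndufb9, Ndufaf6 and Ndufb1-ps.

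Pericytes or smooth muscle cells, the mural cells of vessels, were the class of Cox4i2 and Ndufa4l2. Cox4i2, the version of complex IV subunit 4 known to be induced by low oxygen, had 145 CPM (112 to 184) and 128 CPM (104 to 155) in this class and made up 24.5% (19.6 to 30.1) and 20.8% (17.3 to 24.7) of its pair with Cox4i1. In the other classes its share was at most 3.33%, in astrocytes of the library labelled flox (4 of 120 UMIs). Ndufa4l2, a relative of Ndufa4 that is known as a target of hypoxia-inducible factor, had 469 CPM (408 to 535) in pericytes or smooth muscle cells of the library labelled flox and 159 CPM (133 to 190) of the library labelled cKO. It made up 79.8% (74.5 to 84.4) of its pair in the first and 51.6% (45.2 to 58.1) in the second. Ndufa4 itself stood at 119 and 149 CPM. This class (98 and 109 cells) was not among those compared between libraries. Beside this, the 10 markers of the class summed to 21570 CPM in the library labelled flox and 14460 CPM in the library labelled cKO and microglia markers to 6796 and 8905 CPM, and the last 500 bases of the Ndufa4l2 transcript are 61.2% GC. Their part in the difference was not tested. Both genes were counted as higher in this class than in the others (background 22.4%). Ndufa4l2 is annotated at the end of Shmt2 on the opposite strand, and the labels do not say whether reads were counted by strand.

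Choroid plexus epithelial cells used 4 further alternative genes. Cox6b2, known from testis as the partner of Cox6b1 in complex IV, made up 14.5% (11.6 to 17.9) and 11.9% (10.4 to 13.6) of its pair there, with 149 CPM in each library. Astrocytes followed at 11.9% (7.80 to 17.2) and 7.37% (5.19 to 10.1), while microglia had 0.378% and 0.321%. Cox8b, a muscle version of complex IV subunit 8, was found in choroid plexus cells at 97.7 CPM (72.1 to 130) and 109 CPM (92.6 to 128), or 5.04% and 5.58% of its pair. Of its UMIs over all kept cells, 48 of 55 in the library labelled flox and 150 of 157 in the library labelled cKO were in this class. Before cells were filtered the libraries held 144 and 223 of its UMIs. The rest were in removed barcodes, whose class is not given. Cox7a1, the heart and muscle version of complex IV subunit 7a, made up 8.31% and 10% of Cox7a1, Cox7a2 and Cox7a2l UMIs in choroid plexus cells, 8.25% and 7.5% in ependymal cells, and 4.04% and 5.03% in monocytes or macrophages, against 1.75% and 2.37% in microglia. Atp5g1, 1 of 3 genes for the c subunit of ATP synthase, made up 38.5% (36.2 to 40.8) and 35.8% (34.7 to 37) of the 3 in choroid plexus cells, at 1407 and 1791 CPM. In the other classes its share ranged from 9.02% in T or NK cells to 23.1% in oligodendrocytes. Conversely Cox7a2l, at 59.3% and 55.3% of its family in microglia and 74.4% and 74.6% in dendritic cells, made up 28.2% and 22% in choroid plexus cells.

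Cox6a2, the heart and muscle version of complex IV subunit 6a, had its highest shares in microglia and dendritic cells. It made up 4.31% (3.92 to 4.74) and 3.62% (3.20 to 4.07) of its pair in microglia and 5.78% (3.34 to 9.21) and 2.03% (0.663 to 4.68) in dendritic cells, against 0.879% and 0.636% in monocytes or macrophages. The gene is annotated inside Itgad, an integrin gene, on the opposite strand. Without knowing whether reads were counted by strand, tags of the 2 genes cannot be told apart.

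**Figure D4:**
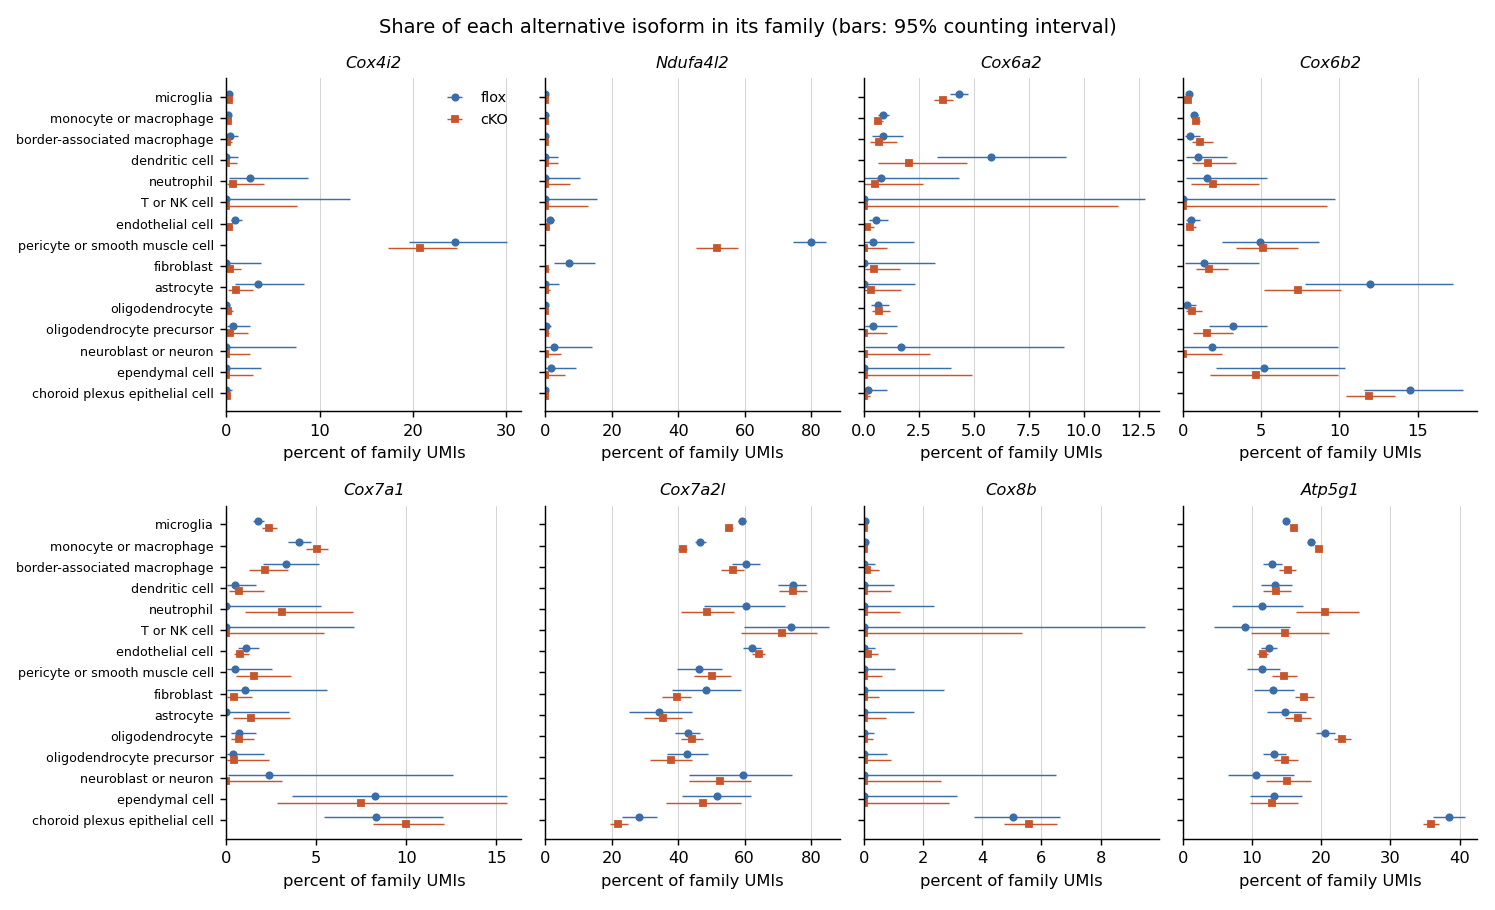
Share of each alternative gene in the UMIs of its family, in percent, by cell class, with circles for flox, squares for cKO and bars for the 95% counting interval; each panel has its own scale. Cox4i2 and Ndufa4l2 stand out in pericytes or smooth muscle cells (24.5% and 20.8%, 79.8% and 51.6%), and Cox8b and Atp5g1 in choroid plexus cells (5.04% and 5.58%, 38.5% and 35.8%).

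The libraries were then compared member by member. A member was called in a class where its CPM differed at least 2-fold between the libraries, the interval of the ratio excluded equality, and the higher library had at least 30 UMIs and 100 CPM. Over the 7 compared classes 7 of 362 measured pairs of nuclear subunit and class were called lower in the library labelled cKO, against a background of 3.71% of all pairs of gene and class, and 1 was called higher, against 0.493%. None of 79 pairs with a mitochondrial-encoded member was called. The lower calls were all of 2 genes, Ndufs5 and Uqcr11. Ndufs5, a small accessory subunit of complex I (chromosome 4, 123712710 to 123718202 in GRCm38), stood at 105 CPM in the library labelled flox and 32.2 CPM in the library labelled cKO in microglia (log2 ratio -1.71, -1.84 to -1.58) and at 162 and 41.4 CPM in oligodendrocytes (-1.97, -2.30 to -1.65). It was also called in border-associated macrophages and endothelial cells, and its log2 ratio in the 7 classes ranged from -1.97 to -1.67. Uqcr11, a small subunit of complex III (chromosome 10, 80402997 to 80406830), stood at 102 and 24.7 CPM in border-associated macrophages, at 112 and 32.0 CPM in endothelial cells and at 128 and 31.8 CPM in oligodendrocytes. Its log2 ratio in the 7 classes ranged from -2.56 to -1.35. The call higher was Atp5g1 in neutrophils, at 65.2 CPM (19 UMIs) and 144 CPM (67 UMIs), and the count was 0 when called doublets were kept.

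Below the minimum of 100 CPM other members differed more. Ndufb7, a complex I subunit of the membrane arm, stood at 71.6 and 3.73 CPM in microglia (1569 and 69 UMIs) and at 80.6 and 6.04 CPM in monocytes or macrophages (1128 and 104 UMIs), log2 ratios of -4.26 and -3.74. Uqcrc1, a core subunit of complex III, stood at 45.7 and 5.36 CPM in microglia and at 45.9 and 6.16 CPM in monocytes or macrophages, -3.09 and -2.90 on the log2 scale. Atp5d, the delta subunit of the ATP synthase's catalytic part, had a median log2 ratio of -1.31 over the 7 classes, the assembly factor Ndufaf8 one of -1.34 and Ndufa13 one of -0.67. These 5 genes, Ndufs5 and Uqcr11 were lower in the library labelled cKO in every compared class and in every one of the 15 classes in which both libraries had a UMI (13 classes for Ndufb7, 14 for Uqcrc1 and Ndufaf8). Such counts over classes, here and below, come from the same 2 libraries, and no share of all genes is given beside them. Relative to the median ratio of the other classes, no pair was called in either direction, and in monocytes or macrophages the values of Ndufs5, Uqcr11 and Ndufb7 became 0.10, 0.09 and 0.35, while Uqcrc1 had -0.19. In microglia Ndufb7 had -0.37 and Uqcrc1 -0.38 on this scale.

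GC content near the transcript's end moved with this pattern in part. Ndufb7, Uqcrc1, Uqcr11, Atp5d and Ndufa13 had 58.8%, 56.4%, 58.9%, 58.2% and 58.6% GC in the last 500 bases of their annotated transcript. Of all genes measured in microglia, 30.1% of those with 55% to 60% GC were called lower, against 0.169% of those under 40%. Ndufs5 and Ndufaf8 had 49.8% and 49.0%, within a range (45% to 50%) where 2.31% of all genes were called lower. Members of like GC with a median near or above 0 were Cox8a (57.2% GC, median log2 ratio 0.08 over the 7 classes), Ndufa11 (58.2%, 0.28), Ndufs8 (56.4%, 0.31) and Ndufs7 (58.6%, -0.03). The part of GC in these differences was not tested. A GC adjustment was among the alternatives recomputed, and its values for these genes are not given. The annotated genes Atp5d, Ndufa13 and Ndufa11 overlap neighbours (Cbarp, Yjefn3 with Tssk6, and Vmac), so that their tags may be shared, while Ndufs5, Ndufb7, Uqcr11, Uqcrc1, Ndufaf8 and Cox8a overlap none.

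**Figure D5:**
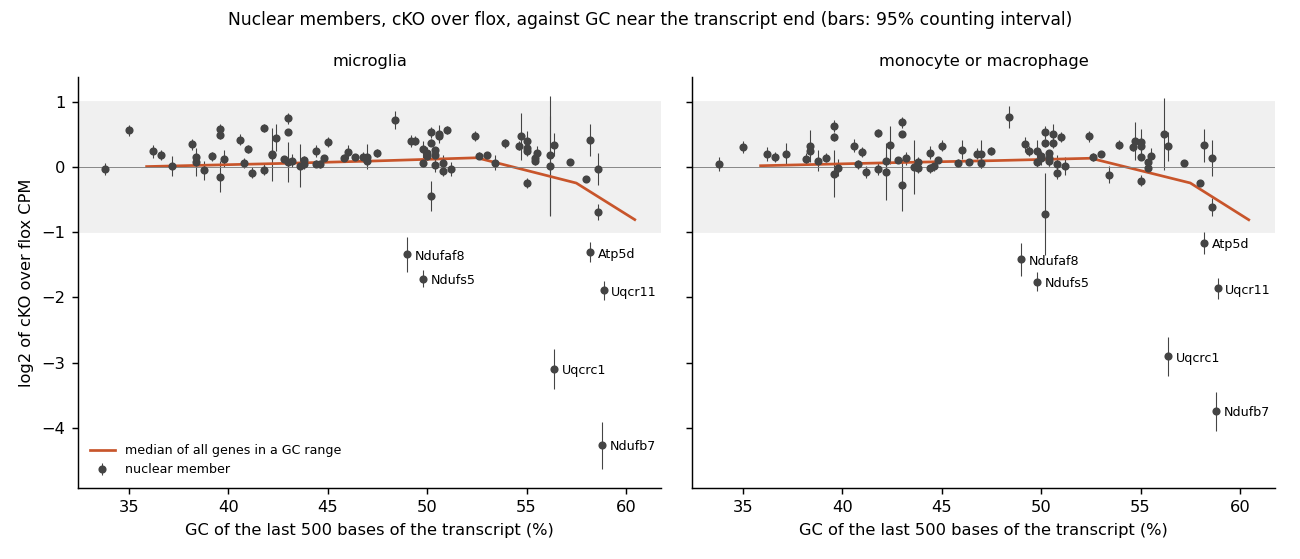
Each dot is a nuclear member with at least 30 UMIs in microglia (left) or monocytes or macrophages (right), at the GC percentage of its last 500 transcript bases and the log2 ratio of cKO over flox CPM, with its 95% counting interval. The line joins the medians of all measured genes in successive GC ranges and the grey band is less than 2-fold; Ndufb7, Uqcrc1, Uqcr11, Ndufs5, Ndufaf8 and Atp5d lie below -1 in both classes.

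Most other nuclear subunits were slightly higher in the library labelled cKO. The median log2 ratio was 0.17 in microglia, where 66 of 82 subunits with at least 10 UMIs were above 0, and 0.15 in monocytes or macrophages, where 65 of 82 were. Over all genes the medians were -0.05 and -0.01, with 5568 of 12819 and 5862 of 11927 above 0. Among genes of at least 100 CPM the medians were 0.18 and 0.15 for the subunits (44 of 50 and 44 of 52 above 0) and 0.05 in each class for all genes (998 of 1737 and 1052 of 1787). Endothelial cells had the highest median at 0.26 (63 of 83 above 0, all genes -0.10). Beside this, 52 protein genes of the large subunit of the cytosolic ribosome had a summed log2 ratio of 0.29 in that class. Those of the small subunit were not in this sum. The endothelial cells also lay in different clusters: the Spock2 and Slco1a4 cluster held 219 cells of the library labelled flox and 82 of the library labelled cKO, and the cluster with Ackr1 and Vwf 352 and 474. The part of both in the difference was not tested. The lowest medians were those of border-associated macrophages (0.03), oligodendrocytes (0.03) and neutrophils (0.04). The summed nuclear level was higher in the library labelled cKO in 15 of 15 classes, by 0.01 to 0.25 on the log2 scale, and so was that of complex V, while the complex III sum was lower in 13 of 15. That sum includes Uqcr11 and Uqcrc1, with median log2 ratios of -1.89 and -2.75 over the 7 compared classes. Medians of the other complex III subunits ran from -0.03 (Uqcrc2) to 0.20 (Uqcrfs1). In the clusters of microglia the summed difference was 0.16 in the Cd5l cluster, 0.12 in the cycling cluster and -0.01 in the resting-type cluster, which held 819 of 2198 gated microglia in the library labelled flox and 328 of 1342 in the library labelled cKO. The make-up of the class thus moved with the difference over all microglia, and its part was not tested. In the 6 clusters of monocytes or macrophages the difference was 0.08 to 0.18. Each of these clusters was also higher in the library labelled cKO within the same depth window.

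At a smaller threshold, 0.5 on the log2 scale, 38 of 362 pairs of nuclear subunit and class were called higher, 10.5% against a background of 5.51%, and 7 lower against 8.72%. The higher calls came from 15 genes. Ndufb6, an accessory subunit of complex I, was called in 5 classes and stood at 94.7 and 159 CPM in microglia (0.74, 0.66 to 0.83) and 118 and 189 CPM in monocytes or macrophages (0.68, 0.60 to 0.77). Ndufab1 stood at 108 and 161 CPM in microglia (0.58), Ndufa10 at 82.2 and 119 CPM in monocytes or macrophages (0.53), Cox5a at 184 and 280 CPM in microglia (0.60), and each was called in 4 classes. Ndufa12 (159 and 237 CPM) and Ndufv2 (89.5 and 132 CPM) were called in microglia, and Atp5g3 (471 and 667 CPM, 0.50) in monocytes or macrophages. Among members with at least 100 CPM, the nuclear ones lowest after Ndufs5 were Ndufa7 (129 and 109 CPM, -0.25) and Cox6a1 (426 and 376 CPM, -0.18) in microglia. In monocytes or macrophages they were Cox6a1 (419 and 353 CPM, -0.24), Ndufa7 (152 and 132 CPM, -0.21) and Cox7a2l (130 and 121 CPM, -0.09). Ndufb6, Atp5g1, Atp5g2, Atp5g3, Atp5k, Ndufa2, Ndufa3, Ndufa12 and Ndufb9 were higher in the library labelled cKO in 15 of 15 classes. The share of all genes that did so is not given, and the classes are not replicates. Relative to the median ratio of the other classes, the median over the nuclear subunits came to 0.08 in microglia and 0.05 in monocytes or macrophages.

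The mitochondrial-encoded sum differed little between the libraries in the large classes: its log2 ratio was -0.03 in microglia and 0.02 in monocytes or macrophages. Single members did not move together. mt-Co3, a core subunit of complex IV, was lower in the library labelled cKO in 15 of 15 classes by 0.21 to 0.56 on the log2 scale, and stood at 3962 and 3355 CPM in microglia and 2711 and 2337 CPM in monocytes or macrophages. mt-Nd2, mt-Nd4 and mt-Atp6 were lower in 14 of 15 classes, with median log2 ratios of -0.17, -0.17 and -0.08. mt-Nd5 was higher in 12 of 15, with a median of 0.07, and mt-Nd4l in 12 of 15 with 0.12, although mt-Nd4l overlaps mt-Nd4 and is read from the same RNA, so that the split between them is uncertain. The same holds for mt-Atp8 and mt-Atp6. mt-Nd1, mt-Co1, mt-Co2 and mt-Nd3 were lower in 8, 6, 8 and 11 of 15 classes, mt-Cytb in 12 and mt-Atp8 in 12. mt-Nd6, the subunit gene on the other strand of the mitochondrial genome, had 3.58 and 4.77 CPM over all cells, against 13300 and 14026 CPM for mt-Co1, the most abundant member. These values are UMIs per gene from transcript ends and are not scaled for length.

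In neutrophils the mitochondrial-encoded sum was lower in the library labelled cKO by 0.37 on the log2 scale (-0.41 to -0.33), and mt-Co3, mt-Nd4 and mt-Nd4l passed the threshold of 0.5. mt-Nd4 stood at 3234 and 2109 CPM and mt-Co3 at 1485 and 1026 CPM. The median cell, however, had 1.56% mitochondrial-encoded UMIs in the library labelled flox and 1.57% in the library labelled cKO. With each cell given the same weight the difference was -0.16. The cells with at least 2000 UMIs described above moved with it, since they held 52140 CPM in the library labelled flox and 36350 CPM in the library labelled cKO while the shallower cells held 18340 and 16850 CPM.

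Levels within the abundant complexes varied widely between genes. By the CPM over all cells, summed over both libraries, the highest nuclear members were Ndufa1 for complex I (288 and 350 CPM), Sdhd for complex II (132 and 127), Uqcrh for complex III (228 and 256), Cox7c for complex IV (513 and 569) and Atp5g2 for complex V (565 and 647). Atp5g3 (489 and 720 CPM) was above Atp5g2 in the library labelled cKO, and Sdha (129 and 128 CPM) was level with Sdhd. By the same sum the lowest were Ndufs7 (15.9 and 17.1 CPM), Sdhb (65.4 and 63.4), Uqcrc1 (48.2 and 6.71), Cox8b (0.853 and 2.29) and Atp5d (68.2 and 29.4). In single libraries the order differed: Ndufa11 (15.4 CPM) was lowest of complex I in the library labelled flox and Ndufb7 (5.74 CPM) in the library labelled cKO, where Ndufa4l2 (1.96 CPM) and Cox4i2 (2.23 CPM) were below Cox8b. Before cells were filtered, Cox4i2 (134 and 159 UMIs) had fewer UMIs than Cox8b (144 and 223). Of the complex I assembly factors Ndufaf5 was lowest, at 5.92 and 7.01 CPM, and the highest were Ndufaf8 in the library labelled flox (27.2 CPM) and Ndufaf3 in the library labelled cKO (24.7 CPM).

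Across cells of a class the nuclear share rose with depth in microglia (Spearman's rho between the nuclear percent and the UMI total 0.58 over 2198 cells and 0.52 over 1342 cells) more than in monocytes or macrophages (0.15 over 1783 and 0.27 over 1782). The nuclear and the mitochondrial-encoded percent of a cell were only weakly related in both classes (0.16 and -0.05, 0.13 and 0.10), and these percentages share the cell's total. In endothelial cells the relation was 0.42 over 580 cells and 0.37 over 557. These are descriptions of cells of 1 library each.

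Genes of mitochondrial function, in 8 lists, gave no 2-fold call in any of the 7 classes in either direction, where 0 to 7 genes a list were measured at the minimum. Over all pairs of gene and class, 3.71% were called lower and 0.493% higher. Ndufaf8, in the list of assembly factors, was below the minimum in each class, with the median log2 ratio of -1.34 given above. The lists are not all apart from the members: that of assembly factors includes the Ndufaf genes, and the hypoxia-response list includes Ndufa4l2 and Cox4i2. Median log2 ratios in microglia ran from -0.29 for regulators of respiration that respond to hypoxia to 0.17 for electron carriers. In that first list, Ldha stood at 306 and 263 CPM and Hif1a at 225 and 195 CPM in microglia, and Vegfa at 493 and 375 CPM in monocytes or macrophages. Slc2a1, the glucose transporter of the blood-brain barrier, stood at 3506 and 2503 CPM in endothelial cells (-0.49, -0.53 to -0.45) beside Epas1 at 1422 and 1438 CPM. The cluster make-up of the endothelial cells, given above, moved with this, and its part was not tested. In the list of exchange across the inner membrane, Ucp2, an uncoupling-protein relative abundant in leukocytes, stood at 2084 and 3002 CPM in microglia (0.53) and 1208 and 1832 CPM in endothelial cells (0.60), and Slc25a3, the phosphate carrier, at 504 and 564 CPM in microglia. For the citric acid cycle Ogdh stood at 150 and 182 CPM and Cs at 114 and 105 CPM in microglia, and for electron carriers Cycs (cytochrome c) at 73.2 and 75.1 CPM and Etfa at 60.2 and 61.1 CPM. Fis1, of the fission list, stood at 92.4 and 57.9 CPM in microglia (-0.67) and 125 and 74.4 CPM in endothelial cells (-0.75), and Bnip3l at 209 and 216 CPM in microglia. Among assembly factors Cox17, the copper chaperone of complex IV, stood at 166 and 113 CPM in monocytes or macrophages (-0.56), with Coa5 at 86.9 and 98.1 CPM. Among regulators of biogenesis Yy1 stood at 106 and 87.1 CPM and Gabpb1 at 72.0 and 65.4 CPM in microglia, and in the list of mitochondrial DNA expression Slirp at 62.3 and 70.3 CPM and Ssbp1 at 50.7 and 54.9 CPM.

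By class, the summed list levels followed the nuclear subunits only in part. The citric acid cycle list was highest in choroid plexus cells (2856.8 and 3058.3 CPM), stood at 2640.6 and 2349.4 CPM in astrocytes, and was lowest in neutrophils (974.02 and 920.91 CPM). The exchange list, in which Ucp2 is the most abundant gene, was higher in microglia (3801.2 and 4831.3 CPM) than in oligodendrocytes (2444.4 and 2556.0 CPM), against the order of the nuclear subunits. Endothelial cells were highest for the hypoxia-response list (5758.3 and 4664.4 CPM), of which Slc2a1 made up the larger part.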

How the data were processed

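Single-cell transcripts of 2 libraries were measured as UMI counts per gene and barcode. Reads were handled with CASAVA 1.8, STARsolo and Seurat on build mm10, per the submitters' processing notes; the labels do not state settings, strand use or cell calling. The authors deposited raw counts, and no column was left unmapped (0). Counts of 3′ tags were summed per class and library and divided by all UMIs (CPM, not scaled for length).

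Cells with under 500 UMIs, under 200 genes or over 25% mitochondrial UMIs were removed (the last uses the members themselves), as were doublets called by Scrublet (2.33% and 1.07%, 6% expected). Classes came from marker genes in single cells: at least 3 markers of the class, a score of at least 0.25 and a margin of 0.1. The scoring rule, and the need for Cd163 or Lyve1 in border-associated macrophages, were set after clusters had been seen. Leiden clusters (resolution 1; scanpy 1.11.5, leidenalg 0.10.2) left out the members. The calls were tested on simulated data. edgeR 4.0.16 in R 4.3.3 gave TMM factors only, and the rest used Python 3.11.15 with numpy 2.4.6, scipy 1.17.1 and pandas 2.3.3. Gene positions and GC of the last 500 transcript bases come from GENCODE M21 (GRCm38, the same build as mm10).

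The members, marker and gene lists were chosen with earlier results of these data known. Named genes were all members past a call, the highest and lowest of each complex, all alternative and mitochondrial-encoded genes, the 3 nuclear members farthest above and below other classes, the 5 highest and lowest ratios in the 2 largest classes, and leading genes of each list. One result that the rule would name is not reported here. Values within clusters, within 5000 to 10000 UMIs, of the smaller classes, of neutrophils by depth and without shared barcodes were added after seeing the data. Alternatives were other limits on cells, gates, scalings, minimum levels, thinning, ratios relative to other classes and a GC adjustment.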

Additional observations from a re-analysis of the deposited data

How the results depend on the processing

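No paired analysis was possible because each group is 1 library, and no replicate could be left out. Of the recomputed values that answer a comparison, 111 moved by less than their counting interval (counts of calls by less than 1.5 times), 47 moved by more and 3 changed sign. The cause of each change below was not tested. The choroid plexus level of nuclear subunits over microglia (3.07, mean of both libraries) was 2.68 with no mitochondrial limit, 2.63 with a limit of 10%, 3.24 with classes from clusters, 3.35 with a stricter gate (3.345), 3.46 with each cell weighing the same, 3.36 without mitochondrial and ribosomal protein genes in the total (3.355), 3.22 with TMM and 3.55 with cells thinned to 2000 UMIs. Microglia over monocytes or macrophages gave 0.943 for nuclear subunits, and 0.874 with each cell weighing the same, 0.972 without mitochondrial and ribosomal protein genes, 0.864 with TMM and 0.881 thinned. For mitochondrial-encoded members it gave 1.52, and 1.44 with the 10% limit, 1.45 with clusters, 1.66 with the stricter gate, 1.57 without mitochondrial and ribosomal protein genes and 1.40 with TMM. Neutrophils over monocytes or macrophages gave 0.503, and 0.855 with at least 2000 UMIs, 0.394 with clusters, 0.375 with each cell weighing the same, 0.408 with TMM and 0.731 thinned. Mitochondrial-encoded UMIs per nuclear UMI in microglia (6.07) were 6.67 with each cell weighing the same and 6.73 thinned. Between the libraries, the log2 ratio of the mitochondrial-encoded sum in microglia (-0.03) was -0.016 with the 10% limit, -0.028 with doublets kept, -0.049 with clusters, -0.018 with the stricter gate, -0.0066 with TMM, 0.00016 with each cell weighing the same and 0.0021 thinned. In monocytes or macrophages (0.02) it was -0.017 with clusters, 0.047 with the stricter gate, 0.038 with TMM and 0.0024 thinned, so that no direction can be given for these classes. In neutrophils (-0.37) it was -0.52 with at least 2000 UMIs, -0.28 with clusters (-0.275), -0.46 with the stricter gate, -0.16 with each cell weighing the same, -0.28 with TMM (-0.279) and -0.47 thinned. The 7 lower calls became 13 without mitochondrial and ribosomal protein genes, 11 with TMM, 31 at 20 CPM, 3 thinned and 0 relative to other classes; the 1 higher call became 0 with doublets kept and 0 relative to other classes. Relative to other classes the nuclear medians were 0.076 in microglia and 0.052 in monocytes or macrophages (0.17 and 0.15), and the ratios in these classes became 0.15 and 0.10 for Ndufs5, 0.047 and 0.094 for Uqcr11, 0.0037 and 0.22 for Atp5d, and 0.35 for Ndufb7 in monocytes or macrophages. The nuclear sum of the resting-type microglia cluster alone had -0.011. Without shared barcodes the medians were 0.17 and 0.15, and 7 and 1 calls were made.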
